A study of Homo sapiens with 4 samples.

Results

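The genes described here coat the lipid droplet, build the triglyceride stored in it, and release that triglyceride again. They were chosen by symbol from the table of gene counts: PLIN2 and PLIN3 for the coat, PNPLA2, ABHD5, HILPDA and G0S2 for lipolysis, and LPIN1, LPIN2, DGAT1 and DGAT2 for synthesis. Of these 10 genes, 9 were matched among the 12912 genes of the table, and DGAT1 was not analysed here. The 9 genes were measured by RNA-seq in 786-O, a clear cell renal carcinoma (ccRCC) line without functional VHL. 786-O-Ctrl is the VHL-null subline and 786-O-VHL is the subline to which HA-tagged wild-type VHL was returned with a retroviral vector. The labels of both hold the letters TR, the study's short form for its triple reporter (GFP, luciferase and thymidine kinase). Both grew in the same serum-supplemented medium, and each was sequenced as 2 libraries. Each genotype is thus a single subline, and the sources used here do not say whether its 2 libraries came from separate cultures, so that p-values measure only the spread between these libraries.

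Clear cell carcinoma takes its name from cytoplasm filled with lipid and glycogen, and VHL is the part of a ubiquitin ligase that marks the HIFα subunits for degradation. Triglyceride is assembled at the endoplasmic reticulum, where lipins turn phosphatidic acid into diacylglycerol and the DGAT enzymes add the last fatty acid. It then collects in droplets whose surface is covered by perilipins. Release starts with PNPLA2, also called adipose triglyceride lipase (ATGL), which ABHD5 activates and which G0S2 and HILPDA inhibit. HILPDA and PLIN2 are known from other work as genes that hypoxia or HIF can induce.

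The promoter windows of the 4 genes below are shown because they are the genes of the coat and of lipolysis, among those with a window, that differed between the sublines at an edgeR FDR under 0.05, 3 of them lower and 1 higher in 786-O-VHL, and because HIF is known to bind a short core sequence. The windows are from RefSeq on GRCh38.p14, run from 250 bases before to 50 bases after the gene's start, and are written 5′ to 3′ on the gene's strand. Capitals mark the letters ACGTG or GCGTG, the core of the hypoxia response element, on either strand. The E-box CACGTG holds ACGTG on both strands, so the motifs overlap there. PLIN2 lies at chr9:19127443-19127742 on the minus strand, PLIN3 at chr19:4867618-4867917 on the minus strand, G0S2 at chr1:209675162-209675461 on the plus strand and PNPLA2 at chr11:818664-818963 on the plus strand.
PLIN2: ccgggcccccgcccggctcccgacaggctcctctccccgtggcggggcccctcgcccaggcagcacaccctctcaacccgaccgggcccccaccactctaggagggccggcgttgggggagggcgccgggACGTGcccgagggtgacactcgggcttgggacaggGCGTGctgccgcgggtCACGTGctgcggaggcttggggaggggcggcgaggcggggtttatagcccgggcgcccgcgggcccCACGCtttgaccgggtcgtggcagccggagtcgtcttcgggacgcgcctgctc
PLIN3: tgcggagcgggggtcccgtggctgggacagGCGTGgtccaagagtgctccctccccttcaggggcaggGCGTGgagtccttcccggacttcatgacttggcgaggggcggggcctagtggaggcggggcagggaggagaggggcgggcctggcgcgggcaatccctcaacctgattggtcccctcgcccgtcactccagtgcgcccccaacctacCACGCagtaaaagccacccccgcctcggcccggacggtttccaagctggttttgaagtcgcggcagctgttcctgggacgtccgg
G0S2: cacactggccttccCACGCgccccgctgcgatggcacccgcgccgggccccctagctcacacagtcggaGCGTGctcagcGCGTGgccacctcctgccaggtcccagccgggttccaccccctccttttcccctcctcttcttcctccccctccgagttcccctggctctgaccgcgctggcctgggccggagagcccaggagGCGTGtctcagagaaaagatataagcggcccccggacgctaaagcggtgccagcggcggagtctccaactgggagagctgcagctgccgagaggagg
PNPLA2: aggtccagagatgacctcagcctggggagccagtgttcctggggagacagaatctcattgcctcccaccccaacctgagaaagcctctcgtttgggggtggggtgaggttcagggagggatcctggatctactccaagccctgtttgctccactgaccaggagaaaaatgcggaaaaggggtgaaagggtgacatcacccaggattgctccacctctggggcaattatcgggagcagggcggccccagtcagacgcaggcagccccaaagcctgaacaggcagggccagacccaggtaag

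The PLIN2 window held 5 matches. A pair of them formed the E-box CACGTG from position -69 to -64 before the start. The PLIN3 window held 3 matches and the G0S2 window 4, all of the GCGTG form, and the PNPLA2 window held 0. Among all 35116 promoter windows of the same length, 48.4% held at least 1 match and 10.1% held 3 or more, and 7.26% held CACGTG. Windows were found for 7 of the 9 genes, all but HILPDA and DGAT2. ABHD5, LPIN1 and LPIN2 have several starts, with 0 to 2 matches in each window. LPIN1, whose windows are not shown, was also called lower (edgeR FDR = 1.65e-09) and had 0, 1 and 1 matches in them. In LPIN2, which was not called (edgeR FDR = 0.182), the 2 matches of a window also formed CACGTG, from position -210 to -205. A match describes letters in the window and not a bound site. The motifs and the windows shown were chosen after the values were seen, so these counts do not test a link with the direction of change. The 35116 windows are all those of the reference, whether or not their genes are expressed here.

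The counts summed to between 2807779 and 22141263 per library, with the lowest total in 786-O-VHL replicate 1, where 3 counts, the limit that a count of 0 allows, stand for 1.02 CPM (counts per 1e6 of the TMM-scaled depth of a library). In the other 3 libraries this limit lay between 0.142 and 0.199 CPM. It covers counting error only. VHL mRNA itself was at 42.9 and 43.9 CPM in 786-O-Ctrl and at 178 and 163 CPM in replicates 1 and 2 of 786-O-VHL. Its log2 fold change was 1.96 with a standard error (SE) of 0.0706 and an edgeR FDR of 2.86e-19. Of 13 renal and ccRCC markers, 12 were matched and 9 were above 1 CPM in every library, among them PAX8, PAX2 and VIM. The marker CA9 had group means of 1.19 CPM in 786-O-Ctrl and 0.577 CPM in 786-O-VHL. These rest on 25 and 18 counts against 2 and 8, and CA9 was not called (edgeR FDR = 0.0536). The markers did not move one way: MME (log2 fold change -4.38), VIM (-1.21) and PAX8 (-0.90) fell, whereas NDUFA4L2 (2.39) and CDH6 (0.45) rose at an edgeR FDR under 0.05. NDUFA4L2 had only 7 and 9 counts in 786-O-Ctrl and 3 and 46 in replicates 1 and 2 of 786-O-VHL. CDH6 was at 219 and 215 CPM in 786-O-Ctrl and at 366 and 251 CPM in these replicates. The summed level of the 12 matched renal and ccRCC markers was 3168 to 3179 CPM in 786-O-Ctrl and 1823 to 1963 CPM in 786-O-VHL, of which VIM alone made up 1684 and 730 CPM as group means, and its part in the differences below was not tested. Adipocyte markers, of which 2 of 6 were matched, summed to at most 7.30 CPM in any library, and leukocyte and endothelial markers to at most 1.02 and 0.760 CPM, with 1 of 5 and 2 of 4 matched. Fibroblast markers, 3 of 5 matched, summed to 10.4 and 11.4 CPM in 786-O-Ctrl and to 15.3 and 14.6 CPM in replicates 1 and 2 of 786-O-VHL. Mitochondrial genes took 2.46% and 2.62% of the counts in 786-O-Ctrl, and 1.98% and 1.79% in replicates 1 and 2 of 786-O-VHL. The part of either in the differences below was not tested. In bulk RNA a change in the number of expressing cells and a change in RNA per cell cannot be told apart.

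All 9 genes passed the filter on low counts. Of them 6 differed between the sublines at an edgeR FDR under 0.05, 5 lower and 1 higher in 786-O-VHL. That share, 66.7%, is close to the 64.5% of all 12335 genes tested that passed the same threshold. In this fit the number of differences is thus not particular to these genes. By direction, 55.6% of the genes were lower against 31.9% of all genes, and 11.1% were higher against 32.6%. The median log2 fold change was -0.46 over the 9 genes and 0.02 over all genes tested. Scaling by library totals alone moved the median of all genes to 0.15 and the shares of higher and lower genes to 41.2% and 25.1%, while 5 of the 9 genes were again lower and 1 higher. In 7 of the 9 genes (77.8%) the libraries of the sublines did not overlap, which held for 80.0% of all genes tested. With 2 libraries against 2, an exact two-sided permutation test cannot go below 0.333, so each call rests on the spread that edgeR shares between genes.

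**Figure D1:**
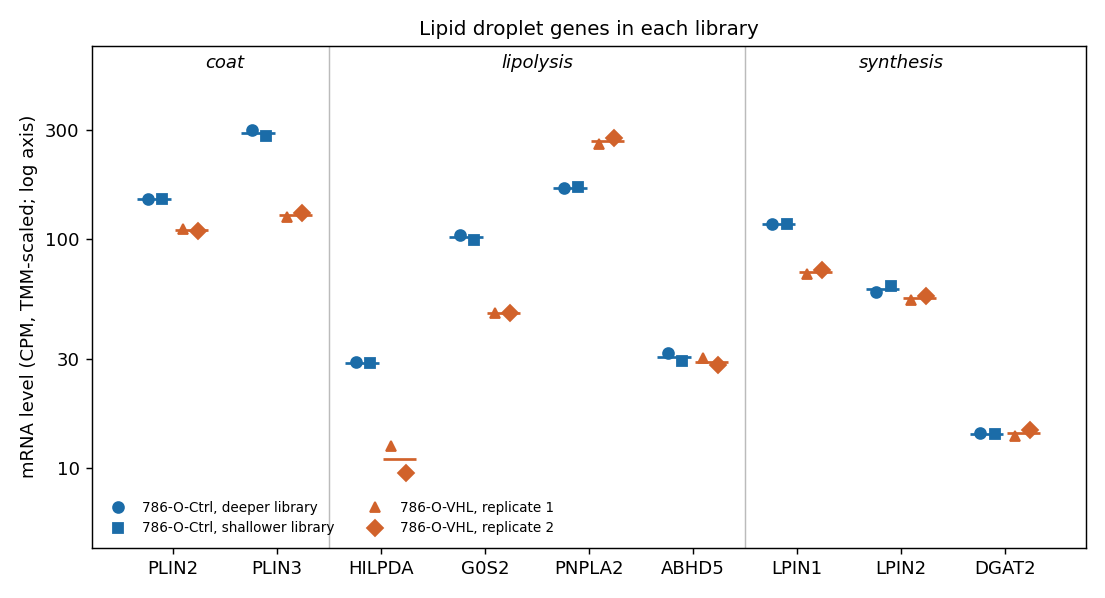
TMM-scaled CPM on a log axis for the 9 lipid droplet genes in each of the 4 libraries, grouped by role, with 786-O-Ctrl in blue, 786-O-VHL in orange and a bar at each group mean. The orange points lie under the blue ones for PLIN2, PLIN3, HILPDA, G0S2, LPIN1 and narrowly LPIN2, above them for PNPLA2, and among them for ABHD5 and DGAT2.

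Both coat genes were lower in 786-O-VHL, and PLIN3 by more than PLIN2. PLIN2 (ENSG00000147872.10) encodes the perilipin that is found on droplets of most cells and is degraded when it is not bound to one. Its gene spans positions 19108373 to 19149288 of chromosome 9 (GRCh37, as for all genes below) on the minus strand, with no other annotated gene across it. PLIN2 mRNA was at 150.1 and 150.4 CPM in 786-O-Ctrl (deeper library first, here and below) and at 111 and 109 CPM in 786-O-VHL replicates 1 and 2. Both 786-O-VHL libraries were lower than both 786-O-Ctrl libraries, with a log2 fold change of -0.46 (SE 0.0656, edgeR FDR = 6.59e-07), that is 72.8% of the 786-O-Ctrl level. Its 95% interval ran from -0.59 to -0.32.
PLIN3 (ENSG00000105355.9), also called TIP47, encodes a perilipin that is stable in the cytosol and moves onto young droplets. Its gene spans positions 4838353 to 4867706 of chromosome 19 on the minus strand, and 1 gene is annotated opposite to it. PLIN3 mRNA was at 300.0 and 282 CPM in the 786-O-Ctrl libraries and at 125 and 131 CPM in 786-O-VHL replicates 1 and 2. The groups were far apart compared with the spread within either, with a log2 fold change of -1.18 (SE 0.0670, edgeR FDR = 7.22e-15) and a 95% interval from -1.31 to -1.04. PLIN3 was thus 2.26-fold lower. By p-value it stood at rank 318 among all genes tested, the highest place of the 9 genes.
The intervals of the PLIN2 and PLIN3 changes did not overlap. Per kilobase of merged exon length, the ratio of PLIN2 to PLIN3 counts within a library was 0.274 and 0.292 in 786-O-Ctrl against 0.486 and 0.454 in 786-O-VHL. This ratio does not depend on how libraries are scaled. It rose by 0.73 on the log2 scale, against an SD between libraries of 0.0656 and 0.0693, and the exact permutation p was 0.333, the smallest this design allows.

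The genes around the lipase moved in opposite directions: PNPLA2 was higher in 786-O-VHL, both of its inhibitors were lower, and no difference was detected for its coactivator. PNPLA2 (ENSG00000177666.17) lies on the plus strand of chromosome 11 from 818914 to 825573, and 1 gene is annotated opposite to it. PNPLA2 mRNA was at 168 and 169 CPM in the 786-O-Ctrl libraries and at 260 and 276 CPM in 786-O-VHL replicates 1 and 2. It was the only one of the 9 genes with a call in this direction, at a log2 fold change of 0.68 (SE 0.0631, edgeR FDR = 2.07e-10), or 1.60-fold, with a 95% interval from 0.55 to 0.81.
HILPDA (ENSG00000135245.10) encodes a small droplet protein that binds and inhibits the lipase. It lies on the plus strand of chromosome 7 from 128095903 to 128098472, and 2 other annotated genes overlap it on its own strand, so reads there could be split between genes. HILPDA had 612 and 433 counts in the 786-O-Ctrl libraries and 37 and 160 in 786-O-VHL replicates 1 and 2. Scaled to depth these were 29.1 and 28.8 CPM against 12.5 and 9.50 CPM. The 786-O-VHL libraries agreed less well with each other than those of 786-O-Ctrl, and both lay far below them. The log2 fold change of -1.52 (SE 0.138, edgeR FDR = 1.30e-10) was the largest in size of the 9 genes, a 2.87-fold lower level with a 95% interval from -1.80 to -1.24. It stayed under the 4-fold threshold of the study, which 4.46% of all genes passed at an FDR under 0.01.
G0S2 (ENSG00000123689.6), a short protein first found in lymphocytes leaving G0, is the other direct inhibitor of the lipase. Its gene is compact, on the plus strand of chromosome 1 from 209848757 to 209849735, with HSD11B1-AS1 annotated on the opposite strand. G0S2 mRNA was at 105 and 99.2 CPM in the 786-O-Ctrl libraries and at 47.5 and 47.8 CPM in 786-O-VHL replicates 1 and 2. The log2 fold change was -1.10 (SE 0.0753, edgeR FDR = 3.86e-13), a 2.14-fold lower level with a 95% interval from -1.25 to -0.94.
HILPDA, PLIN3 and G0S2 were the 3 genes (33.3%) that passed the FDR and were also more than 2-fold lower. Among all genes tested this held for 7.52%.
ABHD5 (ENSG00000011198.9), also called CGI-58, encodes the coactivator of the lipase. It lies on the plus strand of chromosome 3 from 43731600 to 43775863, where ANO10 is annotated across it on the opposite strand. ABHD5 mRNA was at 31.9 and 29.6 CPM in the 786-O-Ctrl libraries and at 30.2 and 28.2 CPM in 786-O-VHL replicates 1 and 2. The libraries of the groups overlapped, and the log2 fold change of -0.10 (SE 0.106, edgeR FDR = 0.402) had a 95% interval from -0.32 to 0.11. Scaled by library totals alone, its sign turned.

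**Figure D2:**
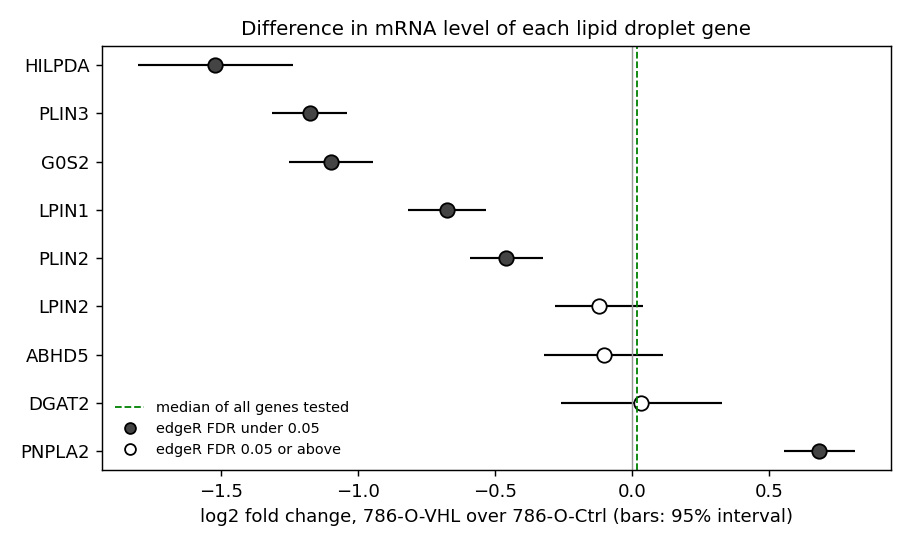
Log2 fold change of each of the 9 genes in 786-O-VHL over 786-O-Ctrl, with 95% intervals, filled circles for an edgeR FDR under 0.05 and a dashed green line at 0.02, the median of all genes tested. HILPDA, PLIN3, G0S2, LPIN1 and PLIN2 lie left of the line with their whole interval, PNPLA2 lies right of it, and the intervals of LPIN2, ABHD5 and DGAT2 cross 0.

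Ratios within a library put the lipase beside its regulators without any scaling. The ratio of HILPDA to PNPLA2 counts, each per kilobase of merged exon length, was 0.321 and 0.315 in 786-O-Ctrl against 0.0894 and 0.0637 in 786-O-VHL replicates 1 and 2. It was 4.22-fold lower on average, a log2 difference of -2.08. The ratio of G0S2 to PNPLA2 was 2.74 and 2.57 in 786-O-Ctrl against 0.799 and 0.757 in 786-O-VHL, which is 3.41-fold lower and a log2 difference of -1.77. Per length the ratio was above 1 in 786-O-Ctrl and below 1 in 786-O-VHL, which depends on the annotated lengths: as plain counts it was 0.625 and 0.588 in 786-O-Ctrl against 0.183 and 0.173 in 786-O-VHL, below 1 in both. The ratio of ABHD5 to PNPLA2 was 0.0966 and 0.0890 in 786-O-Ctrl against 0.0590 and 0.0519 in 786-O-VHL, a log2 difference of -0.74. The libraries of the groups were apart for each of these ratios, and each exact permutation p was 0.333, the smallest possible.

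**Figure D3:**
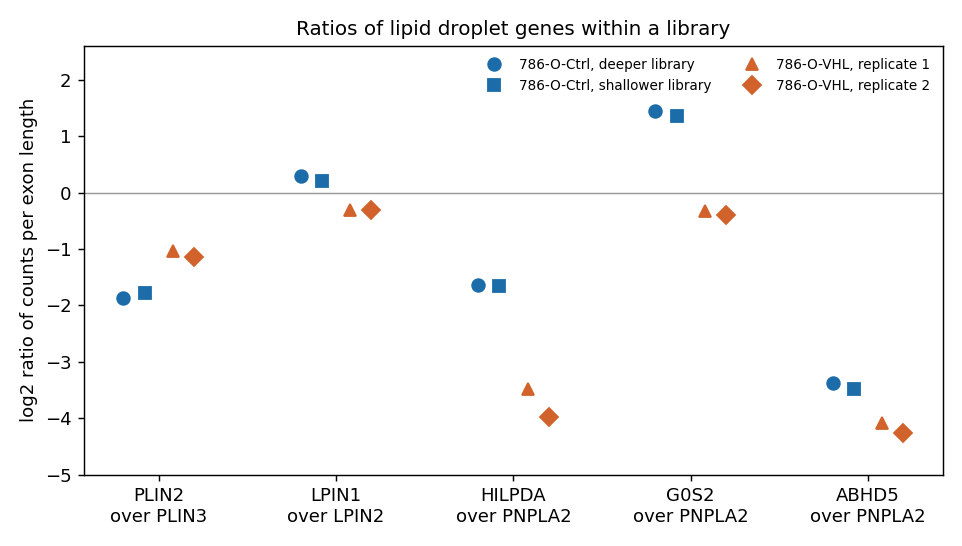
Log2 ratio of counts per exon length of 5 pairs of genes within each library, with 786-O-Ctrl in blue and 786-O-VHL in orange. PLIN2 over PLIN3 is higher in 786-O-VHL, and the other 4 ratios are lower, with the widest distance, -2.08, for HILPDA over PNPLA2.

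Among the synthesis genes only LPIN1 passed the test. LPIN1 (ENSG00000134324.11) encodes a phosphatidate phosphatase of the lipin family, which also acts as a coregulator of transcription in the nucleus. It lies on the plus strand of chromosome 2 from 11817721 to 11967535, with 2 annotated genes on each strand across it. LPIN1 mRNA was at 116.5 and 116.3 CPM in the 786-O-Ctrl libraries and at 70.5 and 73.7 CPM in 786-O-VHL replicates 1 and 2. The log2 fold change was -0.68 (SE 0.0694, edgeR FDR = 1.65e-09), 62.6% of the 786-O-Ctrl level, with a 95% interval from -0.82 to -0.53.
LPIN2 (ENSG00000101577.9), a second enzyme of the same family, lies on the minus strand of chromosome 18 from 2885294 to 3013142, with 1 annotated gene on its own strand and 5 on the opposite one. LPIN2 mRNA was at 59.0 and 62.8 CPM in the 786-O-Ctrl libraries and at 54.3 and 56.5 CPM in 786-O-VHL replicates 1 and 2. The libraries did not overlap, yet the log2 fold change of -0.12 (SE 0.0779, edgeR FDR = 0.182) did not pass the test and had a 95% interval from -0.28 to 0.04. Scaled by library totals alone, its sign turned. The ratio of LPIN1 to LPIN2 counts per exon length was 1.23 and 1.15 in 786-O-Ctrl against 0.808 and 0.811 in 786-O-VHL (log2 difference -0.55, exact permutation p = 0.333). As plain counts the ratio was 1.98 and 1.85 in 786-O-Ctrl against 1.30 and 1.30 in 786-O-VHL, so LPIN2 leads in 786-O-VHL only after division by length.
DGAT2 (ENSG00000062282.15), one of the enzymes that complete triglyceride, lies on the plus strand of chromosome 11 from 75470557 to 75512580, with 1 annotated gene on its own strand and 2 on the other. DGAT2 mRNA was at 14.2 and 14.1 CPM in the 786-O-Ctrl libraries and at 13.9 and 14.7 CPM in 786-O-VHL replicates 1 and 2. The groups overlapped, with a log2 fold change of 0.03 (SE 0.143, edgeR FDR = 0.855) and a 95% interval from -0.26 to 0.33. Only 41 counts in 786-O-VHL replicate 1 stand behind it, and without replicate 2 its sign turned.

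Per kilobase of merged exon length, the order of the mean levels in 786-O-Ctrl was G0S2 (116 CPM per kilobase), PLIN3 (106), PNPLA2 (43.9), PLIN2 (30.0), HILPDA (14.0), LPIN1 (9.81), LPIN2 (8.25), ABHD5 (4.07) and DGAT2 (1.79). In 786-O-VHL the order was PNPLA2 (70.0 CPM per kilobase), G0S2 (54.4), PLIN3 (46.7), PLIN2 (21.9), LPIN2 (7.51), LPIN1 (6.08), HILPDA (5.33), ABHD5 (3.87) and DGAT2 (1.81). PNPLA2 thus moved from the third to the first place and HILPDA from the fifth to the seventh. Neighbors in either order had libraries that did not overlap, with the exception of LPIN1 and HILPDA in 786-O-VHL. Merged exons count every annotated isoform, which lowers these values for genes with many of them.

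Around these 9 genes, 63 others of lipid storage and use were listed, of which 40 were matched in the table and 38 passed the filter. At an edgeR FDR under 0.05, 10 of the 38 (26.3%) were higher and 13 (34.2%) lower in 786-O-VHL, against 32.6% and 31.9% of all genes tested, and their median log2 fold change was -0.15. This is near the background.

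In the coat and droplet assembly list, 3 of 10 tested genes were higher and 0 lower, against 32.6% and 31.9% of all genes tested. None of the other 7 passed the edgeR test. PLIN4, another perilipin, had 10 and 7 counts in the 786-O-Ctrl libraries and 9 and 51 in 786-O-VHL replicates 1 and 2. Its log2 fold change was 2.67 (SE 0.429, edgeR FDR = 4.23e-06) at a level of only 3.04 CPM in 786-O-VHL. PLIN4 was not tested after thinning every library to the shallowest, nor where 10 or more counts were required in each library. LDAF1, listed in the table as TMEM159, encodes the partner of seipin at sites where droplets form. LDAF1 rose from 14.9 and 13.1 CPM to 42.7 and 48.8 CPM, a log2 fold change of 1.74 (SE 0.112, edgeR FDR = 1.06e-13). RAB18, a small GTPase of the droplet surface, was higher by 0.23 on the log2 scale (edgeR FDR = 0.00468), a call that was lost with DESeq2 (adjusted p = 0.106), without the deeper or the shallower 786-O-Ctrl library (edgeR FDR = 0.138 and 0.0796) and without 786-O-VHL replicate 2 (edgeR FDR = 0.250), and after thinning every library to the shallowest (edgeR FDR = 0.554). The 7 genes without a call in this list, seipin (BSCL2) and FITM2 among them, had log2 fold changes of 0.09 or less in size with the exception of BSCL2 (-0.18) and HSD17B11 (-0.15).

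In the triglyceride and sterol ester synthesis list, 6 of 10 tested genes were lower and 1 higher, with a median log2 fold change of -0.44. Of all genes tested 31.9% were lower and 32.6% higher, with a median of 0.02. SOAT2, which esterifies cholesterol, had 33 and 19 counts in 786-O-Ctrl against 1 and 5 in 786-O-VHL. SOAT2 was not tested after thinning or where 10 or more counts were required in each library. Its log2 fold change of -2.21 (SE 0.597, edgeR FDR = 0.00205) rests on few counts and was not called with DESeq2 (adjusted p = 0.0656) or without 786-O-VHL replicate 2 (edgeR FDR = 0.188). LPIN3, the other lipin, fell from 34.7 and 33.5 CPM to 17.0 and 18.6 CPM, a log2 fold change of -0.90 (edgeR FDR = 7.15e-08). AGPAT2, which makes phosphatidic acid, fell by 0.72 on the log2 scale (edgeR FDR = 2.90e-10). The gene that rose was GPAT3, an acyltransferase of the first step, from 30.2 and 31.1 CPM to 52.9 and 44.1 CPM, a log2 fold change of 0.60 (edgeR FDR = 5.48e-06).

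In the lipolysis and ester hydrolysis list, 3 of 8 tested genes were higher and 3 lower, against 32.6% and 31.9% of all genes tested. LIPA, the acid lipase of the lysosome, fell from 119 and 128 CPM to 57.7 and 61.6 CPM, a log2 fold change of -1.03 (SE 0.0732, edgeR FDR = 9.22e-13). NCEH1, a cholesterol ester hydrolase, fell by 0.90 on the log2 scale (edgeR FDR = 1.52e-12) and MGLL, which cleaves monoacylglycerol, by 0.23 (edgeR FDR = 0.00235). PNPLA4, a relative of PNPLA2, rose by 0.96 (edgeR FDR = 8.34e-08) and ABHD6, another monoacylglycerol lipase, by 0.65 (edgeR FDR = 0.000830). LIPE, the hormone-sensitive lipase, was only just past the threshold at a log2 fold change of 0.57 (edgeR FDR = 0.0497), and its libraries overlapped. Without 786-O-VHL replicate 2 the LIPE difference was 0.0043 (edgeR FDR = 0.995), and the call was also lost without the deeper or the shallower 786-O-Ctrl library (edgeR FDR = 0.189 and 0.235), with RLE factors (edgeR FDR = 0.0554), with DESeq2 (adjusted p = 0.387) and after thinning every library to the shallowest (edgeR FDR = 0.229). The ABHD6 call was lost without 786-O-VHL replicate 2 (log2 fold change 0.32, edgeR FDR = 0.350), with DESeq2 (adjusted p = 0.0570) and after thinning (edgeR FDR = 0.170). MGLL lost its call with library totals alone (edgeR FDR = 0.190) and without the shallower 786-O-Ctrl library (edgeR FDR = 0.122).

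In the list of fatty acid uptake, binding and activation, 3 of 10 tested genes were higher and 4 lower, against 32.6% and 31.9% of all genes tested. FABP5, a cytosolic fatty acid carrier, fell from 74.2 and 68.4 CPM to 30.2 and 29.0 CPM, a log2 fold change of -1.29 (SE 0.0876, edgeR FDR = 3.22e-13). Within the acyl-CoA synthetases, which activate fatty acids, ACSL1, ACSL3 and ACSL4 fell by 0.76, 0.58 and 0.28 on the log2 scale (edgeR FDR = 6.75e-09, 1.12e-08 and 0.000650). ACSL5 in contrast rose from 5.03 and 3.92 CPM to 9.84 and 13.2 CPM, a log2 fold change of 1.44 (edgeR FDR = 3.88e-07). SLC27A1, a fatty acid transport protein, rose by 0.44 (edgeR FDR = 0.00275). VLDLR, a lipoprotein receptor that HIF is known to induce, was higher by 0.40 (edgeR FDR = 0.000166), a call that was lost without the deeper 786-O-Ctrl library (edgeR FDR = 0.0642) and after thinning (edgeR FDR = 0.107).

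**Figure D4:**
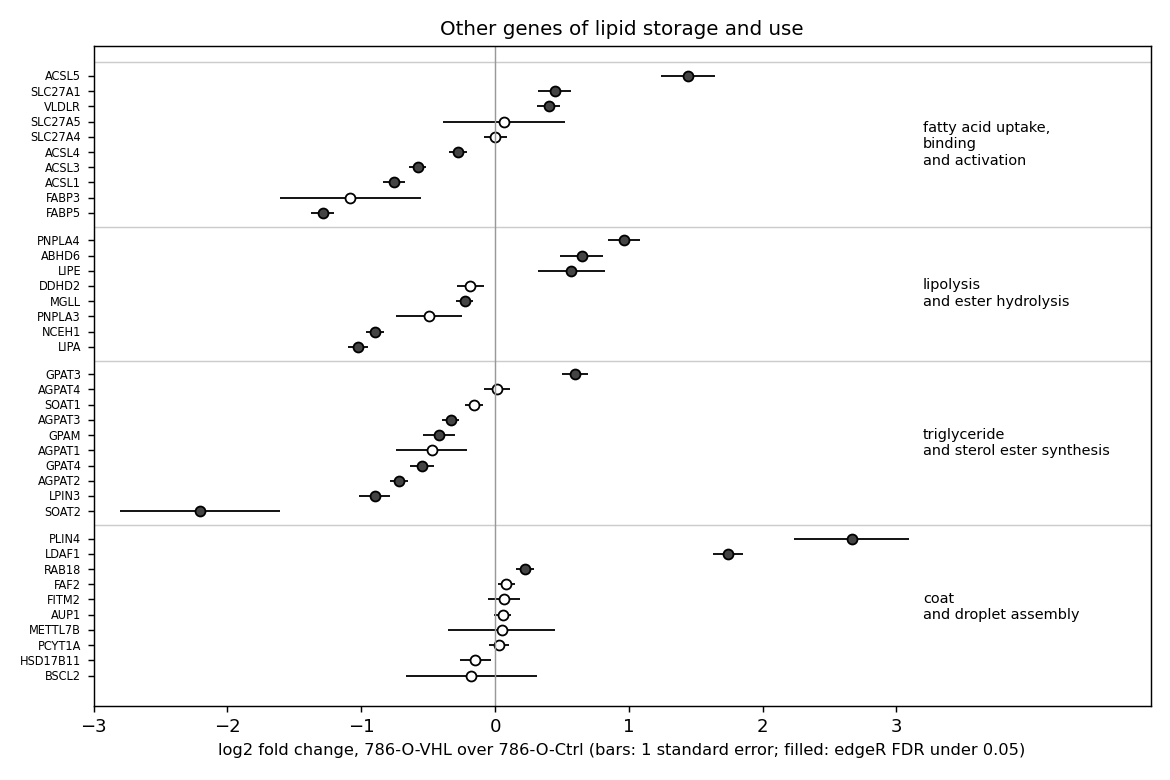
Log2 fold change in 786-O-VHL over 786-O-Ctrl of the 38 other genes tested, in 4 lists, with bars of 1 standard error and filled circles for an edgeR FDR under 0.05. PLIN4 at 2.67 and LDAF1 at 1.74 stand highest and SOAT2 at -2.21 lowest, and most of the synthesis list lies left of 0.

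The directions of the 6 called genes held under every alternative tried, which were other tools, scalings, filters, an equal depth and the omission of each library. The log2 fold change of HILPDA ranged from -1.61 to -1.21, that of PLIN3 from -1.23 to -1.04, that of G0S2 from -1.14 to -0.89, that of LPIN1 from -0.73 to -0.54, that of PLIN2 from -0.52 to -0.33, and that of PNPLA2 from 0.62 to 0.82.

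**Figure D5:**
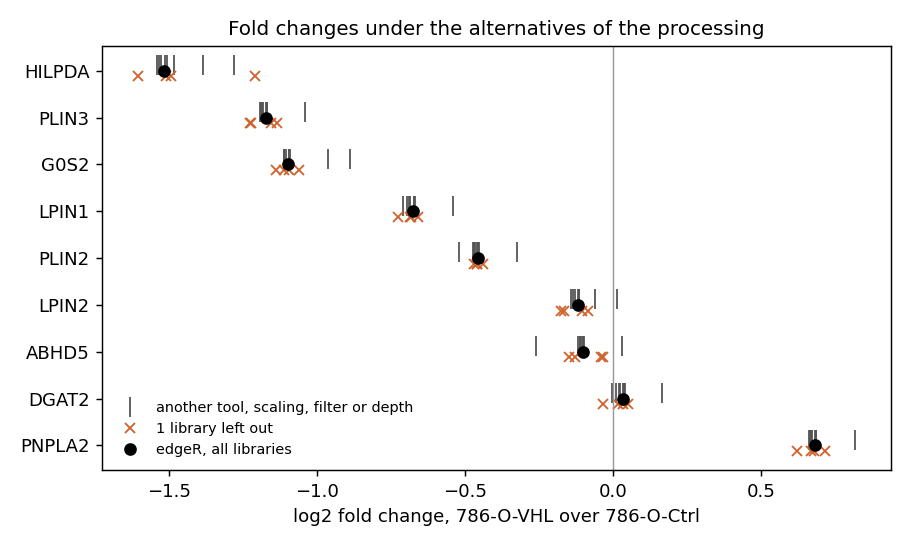
Log2 fold change of the 9 genes with edgeR on all libraries (black circles), with another tool, scaling, filter or depth (grey ticks) and with 1 library left out (orange crosses). The 6 called genes stay on their side of 0, while ABHD5, LPIN2 and DGAT2 have values on both sides.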

How the data were processed

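RNA of both sublines was sequenced by the authors as Illumina libraries and aligned to hg19, and 1 table of raw counts per gene was deposited. The submitters' processing notes name STAR and CASAVA without a role. How reads were assigned to genes, and whether by strand, is not given in the sources used here. Both 786-O-Ctrl columns carry the same replicate number and were told apart by depth, as deeper (22141263 counts) and shallower (15714166). 786-O-VHL replicates 1 and 2 held 2807779 and 16114120 counts.

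Counts were tested with edgeR 4.0.16 (R 4.3.3) by the quasi-likelihood F test with TMM scaling over all 4 libraries, with group as the only term. filterByExpr at a minimum count of 10 kept 12335 genes. P-values were adjusted by Benjamini-Hochberg over these genes. Standard errors are those implied by the F statistic. Replicates differed by more than sampling noise (chi-square per degree of freedom 2.25 and 2.76). Coordinates, exon lengths and overlaps are from a GRCh37 annotation that held 12749 of the identifiers, and a repeated symbol was taken with its most abundant identifier. A renal marker of the list is not reported here. The members and lists were chosen with earlier results of these data known. Named genes are all members, VHL, and up to 3 genes in each direction of each other list, those with the largest fold past an FDR of 0.05. ACSL4 is named beyond this rule. Promoter motifs were chosen after the values were seen. Alternatives were DESeq2 1.42.0, limma-voom (limma 3.58.1), RLE factors, library totals in place of TMM, all genes with a count, only genes with 10 or more counts in each of the libraries, thinning to the shallowest library, a prior count of 2, each library left out in turn, and for ratios counts not divided by length.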

Additional observations from a re-analysis of the deposited data

How the results depend on the processing

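No paired analysis was possible because both 786-O-Ctrl columns of the count table carry the same replicate number, so a replicate block was not run. Under every alternative that kept all 4 libraries, 5 of the 9 genes were called lower and 1 higher. The shares of all genes moved more. In the main fit 31.9% of them were lower and 32.6% higher. With DESeq2 these shares were 25.5% and 23.2%, after thinning every library to the shallowest 26.2% and 26.3%, and with library totals alone 25.1% and 41.2%. Genes of the other lists called higher numbered 10, and 5 after thinning every library to the shallowest, where fewer counts are tested; with 1 library left out they ranged from 7 to 11, and those called lower from 12 to 14 around 13. Among the 9 genes, signs turned for those without a call: ABHD5 (0.030) and LPIN2 (0.013) with library totals alone, and DGAT2 after thinning (-0.0054) and without 786-O-VHL replicate 2 (-0.033), between which and 0.049 its values lay with 1 library left out. With 1 library left out the lone library of its group is assumed to vary like the other group. The log2 difference between groups then lay between 0.68 and 0.78 for PLIN2 over PLIN3, between -0.60 and -0.51 for LPIN1 over LPIN2, between -2.32 and -1.83 for HILPDA over PNPLA2, between -1.81 and -1.72 for G0S2 over PNPLA2 and between -0.84 and -0.65 for ABHD5 over PNPLA2. The depth of 786-O-VHL replicate 1 limits genes with few counts.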

Other observations

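PLIN1 and METTL7A were matched in the table but did not pass the filter on low counts. PLIN1, the perilipin of adipocytes, had counts of 4 (deeper) and 1 (shallower) in 786-O-Ctrl, 0 in replicate 1 of 786-O-VHL and 22 in its replicate 2. METTL7A, a droplet-associated methyltransferase-like protein, had 3 and 1 counts in 786-O-Ctrl and 2 and 9 counts in 786-O-VHL. At these counts no difference can be stated for either gene.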
